A study of Mus musculus with 8 samples.

Results

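Transcripts of 10 endothelial genes, Pecam1, Cdh5, Kdr, Flt1, Tek, Tie1, Eng, Ecscr, Emcn and Lyve1, were followed in the proximal large intestine of 8 gnotobiotic mice. The genes were taken by symbol from the deposited expression table. All 10 were among its 17041 genes, and all 10 passed the filter on low values (a mean of at least 10) among 13020 genes. Each mouse carried the ApoE knockout, was raised germ-free, received its bacteria by oral gavage at 8 weeks of age and was dissected at 26 weeks. In the core group, 3 mice carried a community that makes no butyrate. In the Roseburia group, 5 mice carried the same community plus Roseburia intestinalis, a butyrate-producing gut bacterium. As a model this group is a fixed bacterial mixture in ApoE-deficient animals, and no ApoE-competent or germ-free mice were analysed here.

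Endothelial cells line blood and lymph vessels, and in the gut wall they carry nutrients, fluid and leukocytes between tissue and circulation. Vascular endothelial growth factors act through the receptor tyrosine kinases Kdr (VEGFR2), the main signalling receptor, and Flt1 (VEGFR1), largely a decoy. Angiopoietins act through Tek (TIE2), with Tie1 as its partner receptor, and Eng (endoglin) is a co-receptor for bone morphogenetic proteins. Cdh5 (VE-cadherin) and Pecam1 (CD31) hold neighbouring endothelial cells together. Emcn (endomucin) is a sialomucin of capillaries and veins, and Lyve1 is a hyaluronan receptor of lymphatic vessels that some macrophages also carry. Ecscr is a small transmembrane protein of endothelial cells that affects their migration and survival.

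RefSeq sequence upstream of the transcription start was found for 6 of the 10 genes (Eng, Emcn, Tek, Tie1, Kdr and Flt1). Those of Emcn and Tek, whose transcripts averaged lower with R. intestinalis, are shown beside that of Eng, whose transcripts did not. Each covers bases 250 to 21 before the start (build GRCm38.p6, plus strand), at chr3:137340828-137341057 for Emcn, chr4:94739039-94739268 for Tek and chr2:32646345-32646574 for Eng. Capitals mark GGAA or its reverse TTCC, the core of the site read by ETS transcription factors, a family active in endothelial genes.
Emcn: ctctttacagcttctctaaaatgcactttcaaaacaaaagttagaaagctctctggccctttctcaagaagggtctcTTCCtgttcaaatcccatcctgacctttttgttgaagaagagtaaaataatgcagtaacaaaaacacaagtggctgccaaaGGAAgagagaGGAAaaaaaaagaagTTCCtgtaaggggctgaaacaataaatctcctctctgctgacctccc
Tek: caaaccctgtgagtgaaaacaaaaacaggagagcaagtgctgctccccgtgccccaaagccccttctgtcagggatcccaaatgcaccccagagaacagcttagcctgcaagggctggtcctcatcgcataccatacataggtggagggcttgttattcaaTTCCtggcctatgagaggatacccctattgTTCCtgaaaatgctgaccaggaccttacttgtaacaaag
Eng: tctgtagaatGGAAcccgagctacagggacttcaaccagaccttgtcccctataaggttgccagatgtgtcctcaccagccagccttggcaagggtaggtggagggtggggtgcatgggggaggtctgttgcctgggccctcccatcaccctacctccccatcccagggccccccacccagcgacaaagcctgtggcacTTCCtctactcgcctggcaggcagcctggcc
GGAA on either strand occurred 4 times in Emcn, 2 times in Tek and 2 times in Eng. In the windows not shown it occurred 6 times in Tie1, 4 times in Kdr and 4 times in Flt1. The median over 32817 mouse promoter windows of this length was 2, and 91.9% of them hold GGAA. Any link of these sites with transcript levels was not tested. The longer CAGGAA, which contains GGAA and was searched on both strands, occurred 2 times in Emcn and 2 times in Tek but not in Eng, against 23.7% of all windows with at least 1 match. It was also found 1 time in Tie1, which did not average lower with R. intestinalis. In Kdr, which averaged lower, and in Flt1 it was not found. Motifs for GATA and SOX factors and a TATA box were searched too. Of these, the SOX motif AACAAT occurred 1 time each in Emcn and Tek and in none of the other windows (9.0% of all windows). Any link of these motifs with transcript levels was not tested either. GC content of the windows was 40.4% in Emcn, 50.4% in Tek and 62.6% in Eng, with a median of 51.7% over all windows.

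Values are the normalized expression that the authors deposited, which is not divided by gene length. Estimated depth ran from 4606368 to 15351953 reads per library, so that a value of 50 rested on 31 to 109 estimated reads. No gene of the whole table passed the threshold of the test used (limma, Benjamini-Hochberg adjusted p below 0.05). Libraries also differed in how GC-rich transcripts were represented. Among the fifth of tested genes with the highest transcript GC content (at least 55.6%), the median log2 deviation from the gene's own mean was 0.62 in Roseburia replicate 1. It was -0.36 in replicate 2 of that group and -0.32 in core replicate 3. In bulk tissue, fewer endothelial cells and less RNA per endothelial cell cannot be told apart.

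All 10 genes were detected in every library, and their levels spanned a wide range. Per kilobase of the longest coding transcript, Ecscr averaged 158.5 ± 50.1 (SD, n = 8) and Pecam1 132 ± 26.7. Lyve1 followed at 68.4 ± 24.4 and Emcn at 52.8 ± 14. On the same per-kilobase scale the receptors were lower, with Tek at 20.4 ± 4.43, Eng at 19.1 ± 8.58, Kdr at 17.4 ± 3.37 and the junction gene Cdh5 at 15.9 ± 4.0. Tie1 (6.74 ± 2.38) and Flt1 (6.0 ± 1.56) were lowest. The ranges over the 8 libraries overlapped between all neighbours in this order except Emcn and Tek, and Cdh5 and Tie1. Ecscr was above Pecam1 in 6 of 8 libraries, and Tek was above Eng in 5.

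The comparison of the communities asks whether a butyrate producer alters transcript levels in the large intestine. Ecscr was lower with R. intestinalis in these libraries, by 40.6% of the core mean, and 4 further genes, Pecam1, Lyve1, Emcn and Tek, averaged 25.5% to 36.5% lower. The VEGF receptors Kdr and Flt1, the junction gene Cdh5 and the co-receptors Tie1 and Eng did not share a direction. Of the 10 genes, 7 had a log2 difference below 0, against 50.4% of all tested genes, and their median was -0.33, against -0.0035 over all genes. By limma, 0 of 10 had an adjusted p below 0.05 (0% of all tested genes). An unadjusted p below 0.05 with lower values was found for 5 of 10, against 3.69% of all tested genes. None of the 10 had such a p with higher values, against 4.44% of all tested genes. That number of 5 was 1 when core replicate 1 or core replicate 2 was dropped, 2 when Roseburia replicate 1 or 5 was dropped and 3 when Roseburia replicate 3 or 4 was dropped.

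**Figure D1:**
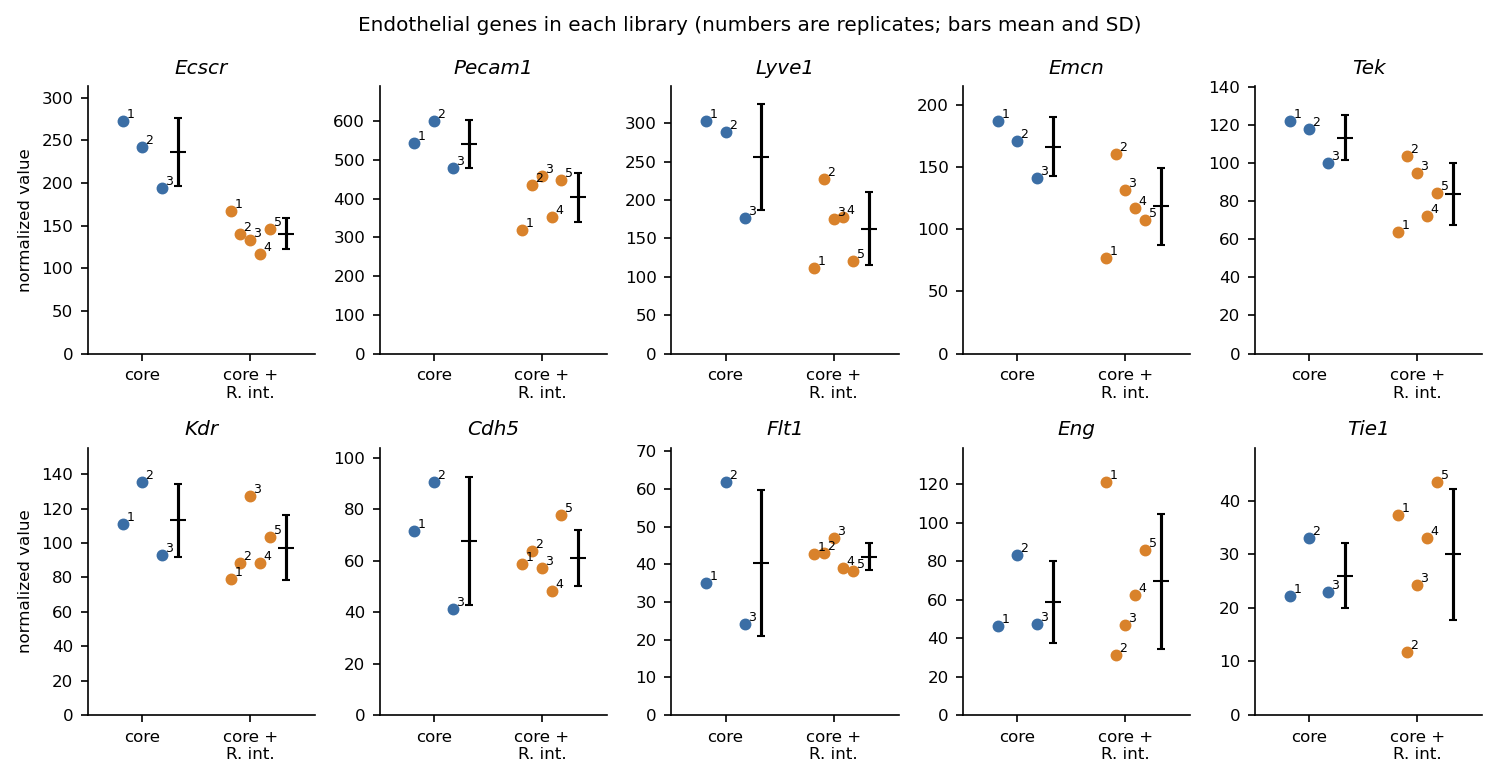
Normalized value (vertical axes, starting at 0) of 10 endothelial genes in each library, for core (blue, n = 3) and the Roseburia group (orange, n = 5), with replicate numbers beside the points and bars for mean and SD. The groups are apart in Ecscr (194 to 273 against 117 to 167) and Pecam1 (478 to 600 against 319 to 458) and overlap in the other 8 genes.

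Ecscr stood at 273, 243 and 194 in core replicates 1 to 3. In Roseburia replicates 1 to 5 it stood at 167, 140, 133, 117 and 146. Every core library was above every library with R. intestinalis. The means were 237 ± 39.9 (SD, n = 3) and 140.5 ± 18.3 (n = 5), a log2 difference of -0.74 (SE 0.174, 95% interval -1.13 to -0.36). By limma it ranked 15 of 13020 genes by p, with an adjusted p of 0.588, and from 0.0416 to 0.978 over 20 alternative settings. In the authors' deposited table Ecscr had a posterior probability of differential expression of 1 and a fold change of 0.59, and it was the only one of the 10 genes at or above 0.95. Over the whole table, 0.288% of genes reached that probability with lower values and 0.194% with higher values. The authors' deposited probability was 0.21 for Pecam1, 0.12 for Tek, 0.08 for Emcn, 0.07 for Lyve1 and 0.01 for the other 5 genes. Limma used the same values, so both results rest on the same mice. The log2 difference of Ecscr lay between -0.88 and -0.63 with each library left out in turn, and its unadjusted p stayed below 0.05 in each of these fits. With limma's library weights its adjusted p was 0.0416, and when Roseburia replicate 3, which carried a weight of 7.98, was also left out, it was 0.441. An opposite-strand gene, 1700066B19Rik, picked out after its values were seen, shares 62 exonic bases with Ecscr in the GENCODE annotation. Its means were 131 and 105, with overlapping groups. The libraries were stranded, but whether the counting used strand is not stated, so some reads of the pair may be shared.

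Pecam1, the adhesion molecule of endothelial contacts that leukocytes and platelets also carry, stood at 544, 600 and 478 in the core libraries. With R. intestinalis it stood at 319, 436, 458, 353 and 449. The groups did not overlap here either, and these were 2 of the 10 genes with lower, non-overlapping values, against 3.31% of all tested genes. None of the 10 had higher, non-overlapping values, against 2.53%. The means were 541 ± 61.1 and 403 ± 62.8 (log2 difference -0.43, SE 0.160, limma adjusted p = 0.588). Cdh5, the cadherin of the same contacts, stood at 71.4, 90.5 and 41.3 in core and at 58.8, 63.6, 57.1, 48.4 and 78.0 with R. intestinalis. Its core libraries held both the highest and the lowest value, and the difference of -0.09 had an interval from -0.69 to 0.51.

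Tek, the angiopoietin receptor, stood at 122, 118 and 99.9 in core and at 64.1, 104, 95, 72.0 and 84.4 with R. intestinalis. Only Roseburia replicate 2 reached into the core range. The log2 difference was -0.45 (SE 0.202, limma adjusted p = 0.588). Tie1, its partner, stood at 22.2, 33 and 23 in core and at 37.4, 11.9, 24.2, 33 and 43.5 with R. intestinalis. The lowest and the highest value of Tie1 both came from the group with R. intestinalis, and the difference of 0.10 had an interval from -0.78 to 0.98.

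Kdr stood at 111, 135 and 93.0 in core and at 78.8, 88.4, 127, 88.5 and 104 with R. intestinalis, a log2 difference of -0.22 with an interval from -0.68 to 0.24. Flt1 stood at 34.9, 61.7 and 24.1 in core. With R. intestinalis it kept within 38.4 to 47.1, inside the core range. Its log2 difference was 0.16, with an interval from -0.48 to 0.80. The intervals of both VEGF receptors therefore include changes in either direction.

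Emcn, the capillary and venous sialomucin, stood at 187, 171 and 141 in core and at 76.8, 161, 132, 117 and 107 with R. intestinalis (log2 difference -0.52, SE 0.233, limma adjusted p = 0.588). Lyve1 stood at 303, 288 and 177 in core and at 112, 228, 176, 178 and 120 with R. intestinalis (log2 difference -0.66, SE 0.268, limma adjusted p = 0.588). In both genes core replicates 1 and 2 were above all other libraries, while core replicate 3 lay within the range of the Roseburia group. Eng, the endoglin co-receptor, stood at 46.0, 83.0 and 47.1 in core and at 121, 31.3, 46.6, 62.6 and 85.6 with R. intestinalis. Its difference of 0.14 had an interval from -0.75 to 1.04. Eng shares 61 exonic bases with the opposite-strand gene Fpgs (means 105 and 104), which was also noted after its values were seen.

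**Figure D2:**
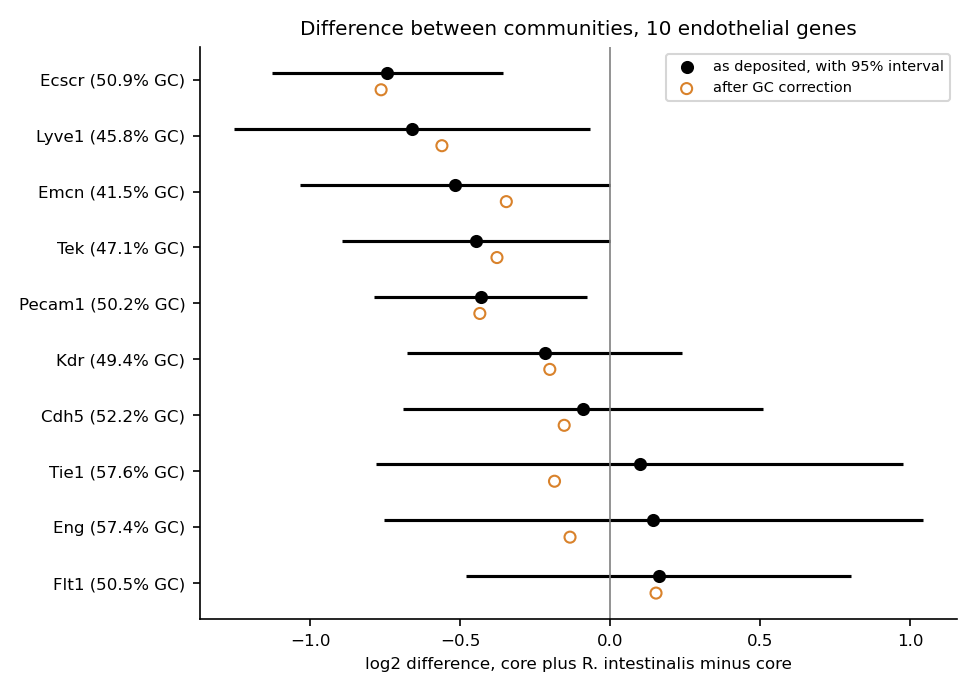
Log2 difference (Roseburia group minus core) of the 10 endothelial genes, with 95% intervals (black) and after a correction for transcript GC content (open orange circles). Ecscr lies lowest at -0.74, and the estimates of Tie1 and Eng cross 0 after the correction (-0.19 and -0.13).

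The 10 genes ranked the mice differently. Core replicates 1 and 2 each held the highest value of 4 genes, Roseburia replicates 1 and 5 of 1 gene each. Core plus R. intestinalis replicate 1 held the lowest value of 5 genes, among them Pecam1, Tek and Emcn, but the highest of Eng. In log2 units from each gene's own mean, that library was at -0.77 for Emcn and 0.99 for Eng. Replicate 2 of the same group showed the opposite order, with 0.28 for Emcn and -0.92 for Eng.

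**Figure D3:**
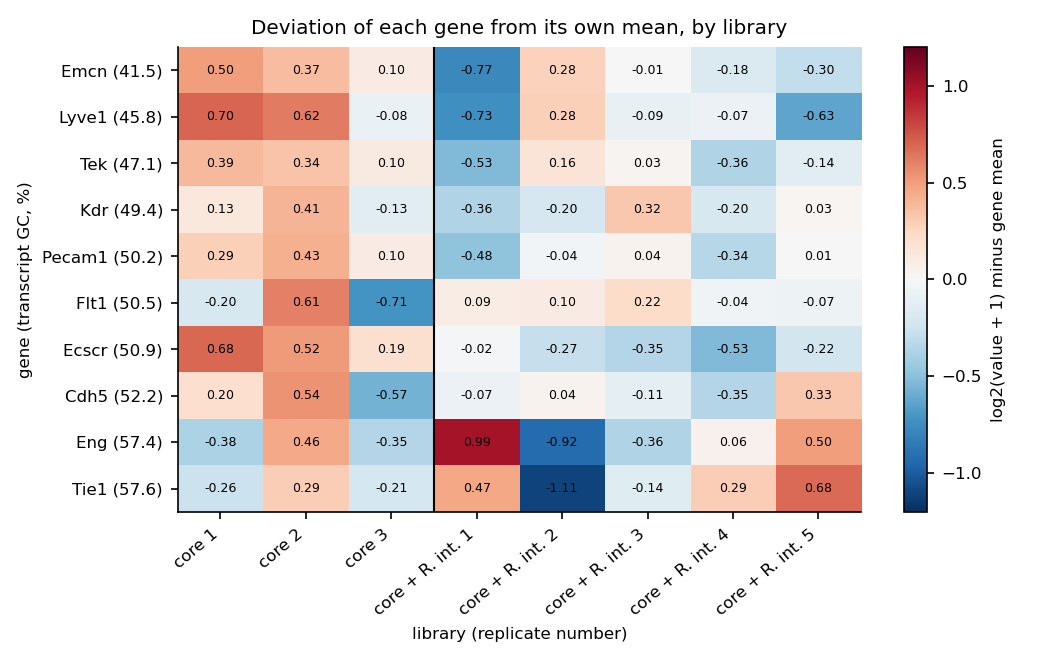
Deviation of log2(value + 1) from each gene's mean (color and printed number) for 10 endothelial genes, ordered by transcript GC content from Emcn (41.5%) to Tie1 (57.6%), in the 8 libraries. Core plus R. intestinalis replicate 1 is low in Emcn (-0.77) and high in Eng (0.99), and replicate 2 is low in Eng (-0.92) and Tie1 (-1.11).

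Transcript GC content ran from 41.5% in Emcn and 45.8% in Lyve1 to 57.4% in Eng and 57.6% in Tie1, with Ecscr at 50.9%. Roseburia replicates 1 and 5, which were high in both Eng and Tie1, were also high in that GC-rich class of genes (0.62 and 0.26), and Roseburia replicate 2, low in both, was low there (-0.36). Core replicate 2 was also high in Eng (0.46) and Tie1 (0.29) but stood at 0.07 in that class. After each library's trend with GC content was removed (a correction chosen after the values were seen), the pooled SD within groups went from 0.67 to 0.40 (log2) for Eng and from 0.61 to 0.39 for Tie1. Their differences changed sign, to -0.13 for Eng and -0.19 for Tie1. The same SD rose slightly for Pecam1 (0.213 to 0.222) and Kdr (0.265 to 0.269). It fell for the remaining genes, least for Cdh5 (0.386 to 0.379). Emcn moved from -0.52 to -0.35 and Lyve1 from -0.66 to -0.56. Ecscr was as low as before (-0.76, limma adjusted p = 0.545), as was Pecam1 (-0.44), and in both genes the groups remained apart. The part of GC content in any of these values was not tested.

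Ecscr was also set against the other 9 genes within each library. Log2 Ecscr minus the mean of the others was 1.42, 0.95 and 1.28 in core replicates 1 to 3. It was 1.02, 0.77, 0.55, 0.49 and 0.63 in Roseburia replicates 1 to 5. The means were 1.22 ± 0.240 and 0.69 ± 0.213, a difference of -0.52. Core replicate 2, in which all 10 genes were above their own mean, lay below Roseburia replicate 1, so the groups overlapped in this measure. By the root mean square difference of centred log2 values over the 8 libraries, the genes most like Ecscr among 9514 compared were Abo (0.137), Dlg2 (0.139), Kcnmb1 (0.153), Gnai1 (0.156) and Wwtr1 (0.162). Abo encodes a blood group glycosyltransferase, Dlg2 a scaffold protein, Kcnmb1 a potassium channel subunit of smooth muscle, Gnai1 a G protein subunit and Wwtr1 the transcriptional coactivator TAZ. Of the endothelial genes, Pecam1 (0.292) ranked 206 and Tek (0.305) ranked 290 in that order. Kdr ranked 1544, Emcn 1682, Cdh5 2252, Lyve1 2537 and Eng 8194, and Flt1 and Tie1, with means below 50, were not compared.

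Signals that act on these receptors were read from lists of the same pathways. Over all tested genes, 50.4% were below 0, and 3.69% had an unadjusted limma p below 0.05 with lower values. Lower, non-overlapping values were found in 3.31% of them. Of 5 tested VEGF and angiopoietin ligands, 3 were below 0, and 1 of the 5 had an unadjusted limma p below 0.05. That was Angpt1, the angiopoietin that activates Tek, at 54.6 ± 12.9 in core and 32.6 ± 11.7 with R. intestinalis (log2 difference -0.76), with overlapping groups. Angpt1 falls outside the naming rule, which takes genes with a mean of at least 50. So does Angpt2, the other angiopoietin tested, at 53.4 ± 4.51 and 36.2 ± 14.4 (log2 difference -0.64). Its groups overlapped, and its unadjusted limma p was above 0.05. Vegfa, the principal endothelial growth factor, averaged 359 ± 113 and 425 ± 148 (log2 difference 0.21). Among 8 tested co-receptors and regulators of the VEGF and TIE receptors, 6 were below 0 and 2 had an unadjusted p below 0.05. Nrp1, a VEGF and semaphorin co-receptor, averaged 357 ± 22.1 and 250 ± 40.7 with groups apart (log2 difference -0.53). Sema3a, a secreted ligand of Nrp1, averaged 225 ± 80.9 and 129 ± 25.2 (log2 difference -0.75). Nrp2 averaged 831 and 597, and Ptprb, the phosphatase that restrains Tek, 149.5 and 117, and neither had an unadjusted limma p below 0.05.

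The junction and endoglin lists were close to the table's centre. Several junction partners were far more abundant than Cdh5 (mean 63.6 over the 8 libraries), such as Ctnnb1 (6026), Ctnna1 (4810) and Ctnnd1 (3014). These lists are therefore not particular to endothelial cells in bulk tissue, and the part of other cells in their levels was not tested. Of 13 tested VE-cadherin junction partners, 6 were below 0 (median 0.02), and 1, the adhesion molecule Jam3, had an unadjusted p below 0.05 (146 ± 15.3 and 110 ± 16.0). Of 18 tested genes of endoglin and BMP signalling, 11 were below 0 (median -0.10) and 0 had an unadjusted p below 0.05. The shares over all tested genes were 50.4% below 0 and 3.69% with such a limma p and lower values. The BMP target Id2 averaged 449 ± 91.9 in core and 356 ± 57.7 with R. intestinalis, and the receptor Tgfbr2 636 ± 60.7 and 555 ± 29.3. Id3, another BMP target, averaged 171 ± 30.2 and 226 ± 54.7, and the inhibitor Smad7 69.6 ± 21.7 and 102 ± 32.0.

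For the next lists, the shares over all tested genes were 50.4% below 0 and 3.69% with an unadjusted limma p below 0.05 and lower values. The share with lower, non-overlapping values was 3.31%. Of 34 further blood endothelial genes tested, 21 were below 0 (median -0.22), and 3 had an unadjusted p below 0.05. These 3 were Ly6c1, a surface protein of capillaries (556 ± 104 and 393 ± 78.6), Cd300lg, a receptor of capillary endothelium (93.8 ± 6.42 and 70.7 ± 9.07, groups apart), and Fabp4, a fatty acid carrier also abundant in adipocytes (721 ± 288 and 384 ± 234). Cd34, a sialomucin of vessels and of fibroblasts, averaged 342 ± 44.1 and 235 ± 78.3, with an unadjusted p above 0.05. The 13 genes of this list above 0 included Plvap (log2 difference 0.76) and Vwf (0.33), given here outside the naming rule. Of 11 tested lymphatic genes, 8 were below 0 (median -0.26) and 2 had an unadjusted p below 0.05, both with groups apart. Ccl21a, the lymphatic chemokine that draws dendritic cells and T cells, averaged 942 ± 222 and 471 ± 158 (log2 difference -1.04). Near-identical copies of this gene exist, which makes its count uncertain. Pdpn, podoplanin, which fibroblasts also carry, averaged 172 ± 13.6 and 125 ± 26.8. Prox1, the transcription factor that defines lymphatic identity and is added here outside the naming rule, was near the lower limit of the test at 8.69 ± 0.755 and 10.9 ± 1.54. None of the genes in these lists passed the adjusted threshold.

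**Figure D4:**
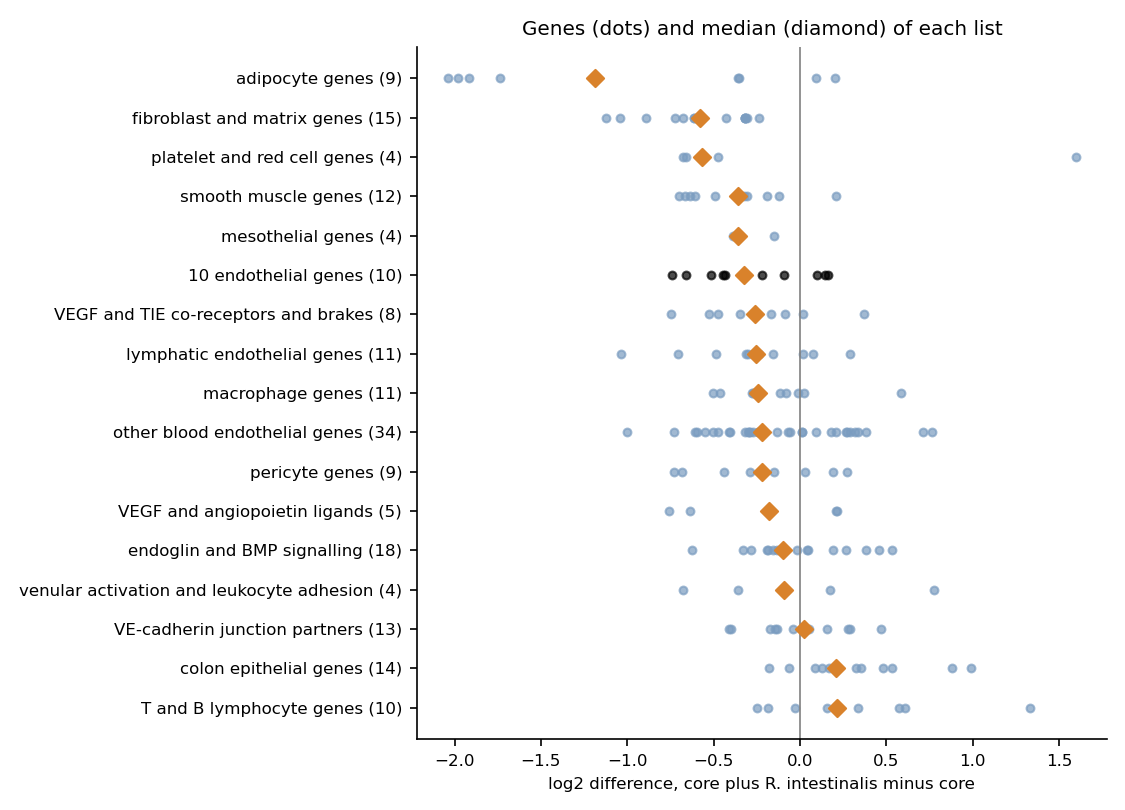
Log2 difference (Roseburia group minus core) of the tested genes (dots) and their median (diamonds) in 17 lists, with the number tested in parentheses. The 10 endothelial genes (black dots) have a median of -0.33, between those of the smooth muscle list (-0.36) and the blood endothelial list (-0.22), and colon epithelial genes have a median of 0.21.

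Markers of other cells of the wall were measured in the same libraries. Of the cell types that follow, only the fibroblast and matrix list had sums that did not overlap between the groups. Among the lists above, sums were also apart for the 10 endothelial genes (1319 to 1825 in core, 1078 to 1306 with R. intestinalis). The same held for the lymphatic list (2107 to 3009 and 1462 to 2066). The co-receptor list was barely apart (3039.72 to 3436.53 and 2481.27 to 3039.02). A sum is set mostly by its most abundant genes. With each tested gene counted equally, as a mean log2 deviation, the groups overlapped in each of these lists. The lowest core and the highest Roseburia library were at -0.16 and 0.02 for the 10 endothelial genes. They were at -0.10 and 0.01 for the lymphatic list and at -0.15 and 0.11 for the co-receptor list. The fibroblast and matrix list stayed apart (0.18 and 0.01). Over all tested genes, 50.4% were below 0. All 15 genes of the fibroblast and matrix list were below 0, with a median of -0.58, and the summed level of the list was 13390 to 15261 in core and 9329 to 12437 with R. intestinalis. The smooth muscle list summed to 162845 to 221488 and 107892 to 193664, with 11 of 12 genes below 0. Of 9 tested pericyte genes, the mural cells of capillaries, 6 were below 0, and the list summed to 2853 to 3338 and 1542 to 3069. Of 9 tested adipocyte genes 7 were below 0, with sums from 2041 to 4274 and from 918 to 2762, the last in Roseburia replicate 4 (the other 4 libraries of that group reached 1742.5). In the colon epithelial list 12 of 14 genes were above 0. No gene of these lists passed the adjusted threshold, and the part of these levels in the endothelial differences was not tested. Other cells that carry Pecam1, Tek or Lyve1 were measured too. Of 11 tested macrophage genes 9 were below 0, with sums from 3083 to 4326 in core and from 1530 to 4296 with R. intestinalis. The value of 1530 was that of Roseburia replicate 1, and the other 4 libraries of its group, from 3328 to 4296, lay within the core range. The lymphocyte list summed to 347 to 553 and 235 to 1245, with the lowest sum in Roseburia replicate 1 and the highest in Roseburia replicate 5 (369 to 766 in the other 3). The platelet and red cell list summed to 158 to 238 and 95.4 to 365. In it the platelet chemokine Pf4 was present in all 8 libraries, at 69.6 ± 14.6 in core and 50.6 ± 13.5 with R. intestinalis. Outside the naming rule, the platelet genes Itga2b and Gp1bb were low but above 0 in all 8 libraries, and Ppbp and Gp1ba were listed at 0 in 6 and 7 of them.

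**Figure D5:**
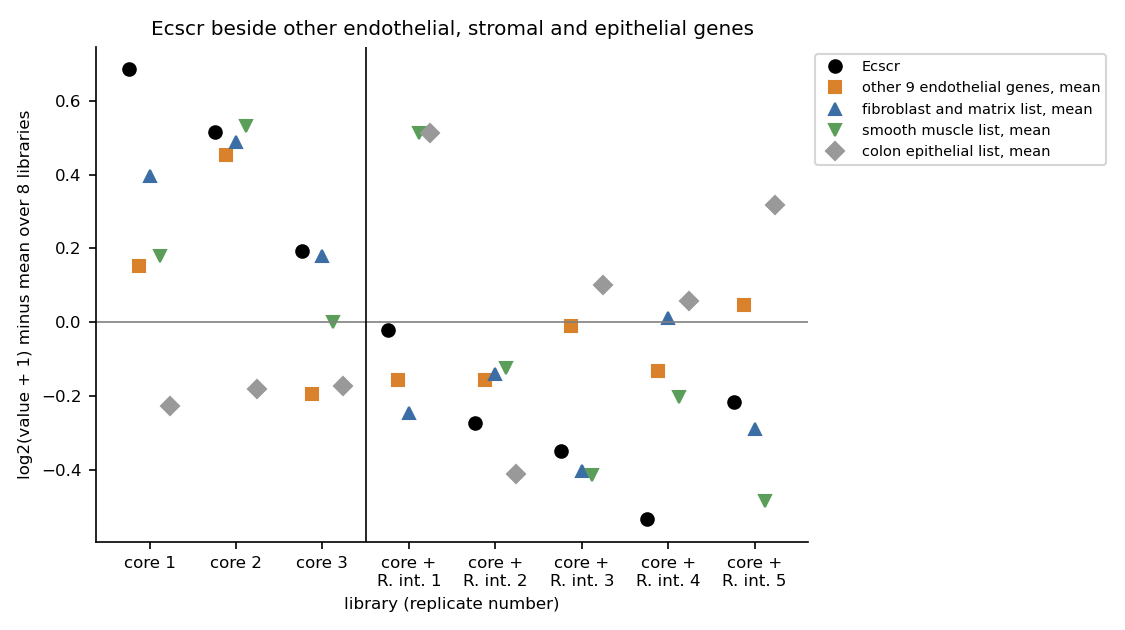
Log2(value + 1) minus the mean over the 8 libraries, in each library, for Ecscr (black circles) and as list means for the other 9 endothelial genes, fibroblast and matrix, smooth muscle and colon epithelial genes. Ecscr runs from 0.19 to 0.68 in core and from -0.53 to -0.02 with R. intestinalis, while the mean of the other 9 runs from -0.19 to 0.45 and from -0.16 to 0.05.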

How the data were processed

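RNA from the proximal large intestine was sequenced with 1 stranded mRNA library per mouse. Per the submitters' processing notes, the mouse build was mm9, and Bowtie2 and RSEM 1.2.23 are listed, their roles unstated. The authors' deposited table gives a normalized expression signal per gene and library, a posterior probability of differential expression (a score), and fold changes as a ratio of the Roseburia group over core. The sources used here do not give the annotation, the gene filter or the tool behind the score. Nor do they say which mice shared a cage, isolator or sequencing run, so each p reflects only the spread among these animals.

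The test was run on log2(value + 1), in which low genes show smaller changes than on the linear scale, for genes with a mean of at least 10 (limma 3.58.1, R 4.3.3, mean-variance trend, Benjamini-Hochberg adjustment). The same fit was also run on data simulated from the means and spreads of these genes. Depth was estimated from the spacing of low values. Since 79.9% to 84.3% of values under 30 fell on that spacing (tolerance 0.05 of it), reads were not recovered as whole numbers and no count model was used. The name of the deposited table hints at an omitted core library, which was not analysed here. Transcript length and GC content came from the longest coding transcript in GENCODE M21 (GRCm38), found for 99.0% of tested genes. Groups were called apart where their ranges did not overlap. The 10 genes and all lists were chosen with earlier results of these data known. From each other list, up to 4 tested genes with a mean of at least 50 and the smallest p could be named, besides the 5 genes most like Ecscr. Alternatives were pseudocounts of 0.5 and 5, no filter, a filter at 50, trimmed-mean-of-M (TMM) rescaling, quantile normalization, each library left out, replicate blocks, library weights and no trend. A GC correction (lowess, span 0.3) and library weights without 1 library were chosen after seeing the data.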

Additional observations from a re-analysis of the deposited data

Results flagged for a closer look

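A mark is an outlying library by Dixon's test, the gap to the nearest value over the range of its group. Chance gives such a mark for about 5% of groups. Of 69 named genes, 3 had one, a count over genes and not over groups. Fabp4 reached 785 in Roseburia replicate 4, far above the other 4 libraries of that group (198 to 368). Itga9, an integrin of lymphatic valves, reached 284.5 in replicate 1, against 165 to 172 in the others. The hemoglobin gene Hba-a1, which has a near-identical copy, reached 230 in replicate 1, against 34.3 to 75.4 in the others.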

How the results depend on the processing

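Ecscr, Pecam1, Tek, Emcn and Lyve1 were below 0 under all 20 alternatives, and Ecscr passed the threshold under 1 of them, library weights (-0.85). The number of genes past the threshold over the whole table was 0 except with library weights (455) and without core replicate 1 (1), so it ran from 0 to 1 with single libraries left out. The number of the 10 genes with lower values and an unadjusted p below 0.05 was 3 without a filter and 3 after TMM rescaling. It was 3 and 1 with a replicate block (number in the sample name and in the title) and 1 to 5 with single libraries left out. The same-numbered mice did not deviate together (correlations from -0.53 to -0.01). With so few pairs, whether the numbers stand for a shared run, cage or isolator cannot be told. The replicate block (number in the title) gave 395 genes with an unadjusted p below 0.05 in place of 1058, and log2 differences of -0.68 for Ecscr, -0.20 for Tie1 and -0.0071 for Eng. Directions also reversed after the GC correction for Tie1 (-0.19), Eng (-0.13) and Icam1 (-0.017), and with library weights for Kdr (0.10) and Eng (-0.043), or for Icam1 when Roseburia replicate 3 was left out as well (-0.0047). With single libraries left out, Cdh5 ran from -0.41 to 0.15, Flt1 from -0.15 to 0.52, Tie1 from -0.063 to 0.38, Eng from -0.092 to 0.42, Vegfa from -0.048 to 0.43, Vcam1 from -0.52 to 0.00056, Ptprc from -0.00067 to 0.53, Cd79b from -0.15 to 0.57 and Hba-a1 from -0.64 to 2.75. The cause was not tested. At a filter of 50, Flt1 and Tie1 were not tested and Ecscr was not set against the other 9 genes. Low values, such as 11.9 for Tie1 in Roseburia replicate 2 (6574836 estimated reads), carry a large counting error.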

Other observations

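Plvap, the diaphragm protein of fenestrated capillaries in the gut, stood out after its values were seen. It was at 68.2, 58.6 and 40.2 in core replicates 1 to 3 and at 262, 45.3, 79.5, 55.5 and 130 in Roseburia replicates 1 to 5 (log2 difference 0.76, SE 0.498). Its transcript has a GC content of 60.6%, above that of Tie1 and Eng. Its 2 highest values came from Roseburia replicates 1 and 5, the libraries in which GC-rich genes had the highest median deviation (0.62 and 0.26). After the GC correction its log2 difference was 0.39, and the cause of these values was not tested.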
